A study of Mus musculus with 8 samples.

Results

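The comparison described here is CBD against DMSO in wild-type ASZ cells, a mouse line from basal cell carcinoma, the skin tumour in which the Hedgehog pathway is active. The ASZ CBD group held 2 libraries and the ASZ DMSO group 2 libraries, out of 8 libraries in 4 groups, and the remaining groups were the same line expressing RasV12, an activated Ras, with CBD or with DMSO, the vehicle. All 4 groups share the ASZ background, and the labels give genotype WT for the wild-type groups. CBD is not written out in the labels, which state neither a dose nor a time of exposure. RNA was total RNA from adherent cells. Members were all named genes with at least 1 FPKM (fragments per kilobase of transcript and per 1e6 fragments) in CBD or in DMSO cells, and 10708 of 22639 named genes met this rule. Of these, 10696 had a p-value under 1 in the authors' deposited table and were tested, and 12 did not. At the edge of the rule, 119 genes peaked between 1 and 1.1 FPKM and 108 between 0.9 and 1 FPKM.

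A group's 2 libraries share a single FPKM value per gene in the deposited table, so neither single libraries nor their SD can be shown. Change is given as log2((CBD + 1)/(DMSO + 1)), which understates the change of genes with low values. Errors of log2 FPKM ratios are standard errors worked back from the authors' p-values, and their median was 0.47 for genes at 1 to 3 FPKM and 0.22 for genes at 100 FPKM or more. "Rose" and "fell" are used of genes with a Benjamini-Hochberg adjusted p under 0.05, where the adjustment ran over all 10696 genes. The labels do not say whether the 2 libraries of a group came from separate cultures, so these p-values can at most measure the spread between libraries, which may be technical, and the sources used here do not state how that spread was estimated.

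Several gene classes named below are known for how quickly their RNA is made and lost. Immediate early genes, such as Fos and Egr1, encode transcription factors whose short messages appear soon after growth factor signals or stress and are then degraded. Feedback genes of the same signals, such as the MAP kinase phosphatases and the RNA-binding protein Zfp36, shut the response down. Many signalling receptors, zinc finger factors and cell cycle regulators also have unstable messages, whereas messages of ribosomal proteins, respiratory chain subunits and many cytoskeletal proteins are long-lived. In skin, basal keratinocytes carry the keratins Krt5 and Krt14 and the transcription factor Trp63, and basal cell carcinoma cells retain this profile.

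The basal keratinocyte markers were high in both groups. Krt5 stood at 6226 FPKM in CBD and 4360.1 FPKM in DMSO cells, and Krt14 at 4109 FPKM in CBD and 5277 FPKM in DMSO cells, and neither passed the test. All 9 markers of this list were members, their summed level was 11570.0 FPKM in CBD and 10769 FPKM in DMSO cells, and Trp63, Dsg3 and Itga6 were the 3 that fell while 0 rose, although 4 rose and 2 fell with equal medians and 4 and 0 relative to genes of like length. None of the 9 fibroblast markers reached 1 FPKM, with 5 listed at 0 in CBD and 4 in DMSO cells. Of other cell types, the endothelial adhesion molecule Pecam1 fell, at 9.44 FPKM in CBD and 15.3 FPKM in DMSO cells, while the myeloid markers Cd68 and Csf1r rose, Cd68 at 16.5 FPKM in CBD and 8.99 FPKM in DMSO cells. Tyr, the tyrosinase of pigment cells, rose, at 4.11 FPKM in CBD and 0.276 FPKM in DMSO cells, and Mitf, the transcription factor of that lineage, fell, at 1.05 FPKM in CBD and 7.56 FPKM in DMSO cells. Defining markers of the same types, namely Ptprc and Itgam of leukocytes, Kdr and Emcn of endothelium and Mlana and Sox10 of pigment cells, were listed at 0 in both groups. Summed levels were 0.639 FPKM in CBD and 1.503 FPKM in DMSO cells for the fibroblast list, 9.47 FPKM in CBD and 15.5 FPKM in DMSO cells for the endothelial list, 17.8 FPKM in CBD and 9.64 FPKM in DMSO cells for the immune list and 5.76 FPKM in CBD and 8.35 FPKM in DMSO cells for the melanocyte list. In bulk RNA, fewer cells of a type and less RNA per cell cannot be told apart. Cd68 and Csf1r no longer passed with equal FPKM sums, and Itga6 and Pecam1 no longer passed with equal medians. Relative to genes of like length, Trp63, Dsg3, Itga6, Pecam1 and Cd68 no longer passed. Krt14 passed as lower with equal FPKM sums, and Krt5 passed as higher with equal medians and relative to genes of like length. The change of Dsg3 was 0.09 after division by the median ratio of genes of like length and -0.22 after subtraction of their median change. The change of Itga6 was 0.41 after division by the median ratio of genes of like length and 0.21 after subtraction of their median change.

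More genes were lower than higher after CBD. Of 10696 genes tested, 1501 rose (14%) and 4532 fell (42.4%). Changes of at least 2-fold came to 456 genes that rose (4.26%) and 2831 that fell (26.5%). The median change was -0.37, with a 10th percentile of -1.65 and a 90th percentile of 0.73. Sequencing depth per library was not established from these values. The summed FPKM of all rows of the table was 533682 in CBD and 373211 in DMSO, and the 10 most abundant genes held 11.2% of it in CBD and 8.38% in DMSO. The values therefore depend on what is held equal between the groups. Relative to the deposited values, equal FPKM sums shift each log2 ratio by -0.52, equal medians by 0.44, and equal fragment mass (the sum of FPKM times transcript length) by -0.13. With equal FPKM sums 440 genes rose and 6315 fell, and with equal medians 2978 rose and 3280 fell. Below, the direction of a gene list is given from the deposited values, and each of these scalings that turns or evens its balance is named in the same sentence. Relative to genes of like length, a median is the change less the median change of 1 of 10 bins of transcript length, whereas counts and calls come from CBD values divided by the median ratio of that bin.

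**Figure D1:**
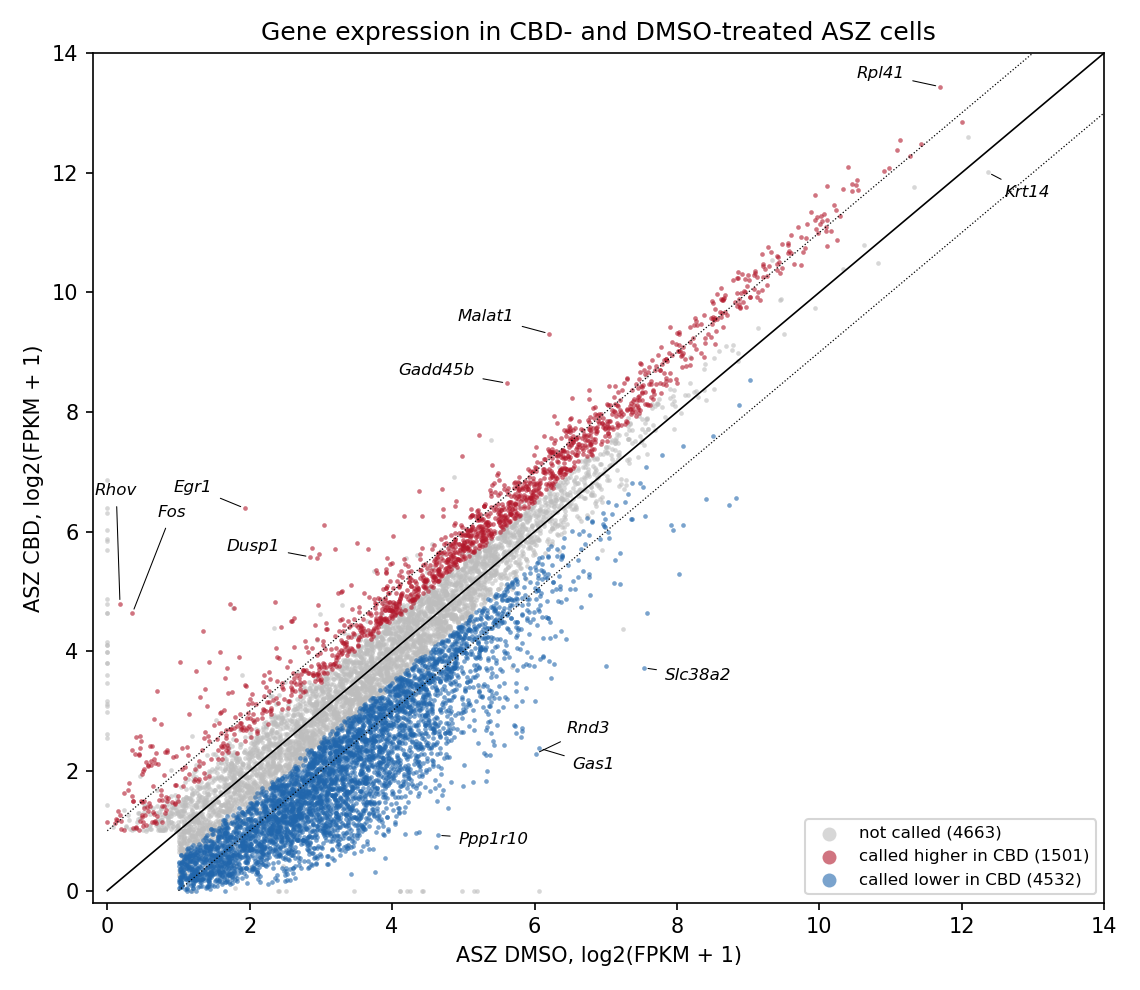
Each point is 1 of 10696 genes, with log2(FPKM + 1) in ASZ CBD cells on the vertical axis and in ASZ DMSO cells on the horizontal axis; the solid line marks equal values and the dotted lines 2-fold differences. The 1501 genes called higher (red) reach up to the most abundant genes, whereas the 4532 called lower (blue) crowd at low and middle levels.

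The 15 highest changes fell into a few kinds of gene. Rhov, a small GTPase, had the highest, at 26.8 FPKM in CBD and 0.132 FPKM in DMSO cells (log2 ratio 7.67, SE 0.93). Egr1 was at 82.95 FPKM in CBD and 2.804 FPKM in DMSO cells and Fos at 23.9 FPKM in CBD and 0.278 FPKM in DMSO cells. Both encode immediate early transcription factors. Dusp1, a phosphatase that inactivates MAP kinases, was at 46.8 FPKM in CBD and 6.19 FPKM in DMSO cells. Zfp36, which binds AU-rich messages and promotes their decay, was at 48.1 FPKM in CBD and 6.87 FPKM in DMSO cells. Gadd45b, a stress-inducible activator of p38 signalling, was at 356 FPKM in CBD and 47.8 FPKM in DMSO cells. These 3 belong to the feedback and stress genes that accompany the early transcription factors. Hspa1a, an inducible Hsp70 chaperone, was at 26.6 FPKM in CBD and 2.31 FPKM in DMSO cells. Malat1, a nuclear noncoding RNA, was at 634 FPKM in CBD and 72.7 FPKM in DMSO cells, and Rsrp1, an arginine- and serine-rich nuclear protein, at 46.2 FPKM in CBD and 6.72 FPKM in DMSO cells. The remaining 6 were the histone gene H2bu2, the matrix proteoglycan Omd, the CTCF paralog Ctcfl, the leukocyte receptor Cd300a and the uncharacterised Gm16702 and Gm15645. All 15 also passed with equal FPKM sums, with equal medians and with equal fragment mass.

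The start regions of 4 of these genes, and of Rnd3 from the opposite end of the list, were chosen for print because they hold one of the motifs marked below. Each line gives 300 bases of the RefSeq GRCm38.p6 assembly, 250 before to 50 after the annotated start, 5′ to 3′ on the gene's strand. Capitals mark TATAAA on the gene's strand between positions -50 and -16, or, on either strand, the cyclic AMP response element TGACGTCA, the AP-1 element TGANTCA or the CArG box bound by serum response factor.
Fos, chr12:85473640-85473939, plus strand: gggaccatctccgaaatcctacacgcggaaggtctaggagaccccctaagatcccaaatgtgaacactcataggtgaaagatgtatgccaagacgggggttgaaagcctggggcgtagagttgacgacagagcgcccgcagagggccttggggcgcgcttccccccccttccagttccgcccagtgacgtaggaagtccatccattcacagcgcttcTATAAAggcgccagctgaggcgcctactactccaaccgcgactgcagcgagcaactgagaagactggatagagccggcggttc
Gadd45b, chr10:80929841-80930140, plus strand: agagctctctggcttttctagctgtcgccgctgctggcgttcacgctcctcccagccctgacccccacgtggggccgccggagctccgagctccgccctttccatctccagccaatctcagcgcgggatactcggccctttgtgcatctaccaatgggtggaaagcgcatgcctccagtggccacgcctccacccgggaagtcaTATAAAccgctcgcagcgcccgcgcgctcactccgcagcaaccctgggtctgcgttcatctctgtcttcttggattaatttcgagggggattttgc
Dusp1, chr17:26508423-26508722, minus strand: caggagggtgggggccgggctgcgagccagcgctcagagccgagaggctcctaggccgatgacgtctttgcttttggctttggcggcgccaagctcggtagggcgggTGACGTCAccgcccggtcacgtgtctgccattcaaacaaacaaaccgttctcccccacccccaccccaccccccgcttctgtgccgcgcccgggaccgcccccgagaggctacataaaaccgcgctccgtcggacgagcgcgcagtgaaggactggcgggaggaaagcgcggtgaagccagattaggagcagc
Zfp36, chr7:28379179-28379478, minus strand: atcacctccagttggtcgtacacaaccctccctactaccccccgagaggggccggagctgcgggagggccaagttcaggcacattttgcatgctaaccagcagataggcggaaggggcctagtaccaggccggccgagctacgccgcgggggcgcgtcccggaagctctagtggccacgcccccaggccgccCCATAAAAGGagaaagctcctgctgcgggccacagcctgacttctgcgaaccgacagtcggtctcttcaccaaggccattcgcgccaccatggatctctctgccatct
Rnd3, chr2:51149062-51149361, minus strand: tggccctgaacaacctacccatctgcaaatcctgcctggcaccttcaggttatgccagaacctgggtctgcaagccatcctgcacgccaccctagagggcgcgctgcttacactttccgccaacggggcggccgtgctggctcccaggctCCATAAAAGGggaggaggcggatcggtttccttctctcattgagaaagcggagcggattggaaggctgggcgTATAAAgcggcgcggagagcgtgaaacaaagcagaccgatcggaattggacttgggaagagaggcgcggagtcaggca

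Fos and Gadd45b held TATAAA ahead of the start, Dusp1 held TGACGTCA, and Zfp36 held a CArG box. Rnd3, which fell, held both TATAAA and a CArG box. Of the 12 highest genes with a RefSeq promoter 5 held any of the 4 marked motifs, with TATAAA in 3, TGACGTCA in 1, the CArG box in 1 and TGANTCA in 0, and of the 11 lowest 1 held any. Over the 8469 tested genes with a RefSeq promoter, TATAAA stood in 2.85% of the 351 that rose at least 2-fold, in 1.11% of the 2253 that fell at least 2-fold and in 1.26% of all. The AP-1 element was found in 7.69% of genes that rose, 4.26% of those that fell and 4.52% of all, and TGACGTCA in 5.41%, 3.95% and 3.55% of these sets. For the CArG box the shares were 2.85%, 1.38% and 1.24%. GGGCGG, the core of the Sp1 box, was in 57.8% of promoters of genes that rose, 70.1% of those that fell and 68.3% of all. Median GC content of the window was 58.7% in genes that rose, 63.3% in genes that fell and 61.7% in all. A TGACGTCA match is not itself a TGANTCA match, and the shares are descriptions of letters in this window.

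The 15 deepest falls were led by a row that joins Ccnf, a cyclin of G2 phase, with the microRNA gene Mir5134, at 0.656 FPKM in CBD and 23.6 FPKM in DMSO cells. Slc38a2, a sodium-coupled neutral amino acid transporter, was at 12.2 FPKM in CBD and 185 FPKM in DMSO cells, and Rnd3, an atypical GTPase that opposes contraction, at 3.89 FPKM in CBD and 63.7 FPKM in DMSO cells. Ppp1r10, a nuclear regulator of protein phosphatase 1, was at 0.899 FPKM in CBD and 23.9 FPKM in DMSO cells. Gas1, a growth arrest protein and Hedgehog co-receptor, was at 4.21 FPKM in CBD and 65.9 FPKM in DMSO cells. These genes encode different kinds of protein, among them a transporter, a GTPase, a phosphatase regulator and a surface receptor. Whether they share a pathway was not tested. E2f8, a repressor of the E2F family, was at 0.457 FPKM in CBD and 13.95 FPKM in DMSO cells. Trp53inp1, a p53-induced stress protein, was at 0.246 FPKM in CBD and 12.6 FPKM in DMSO cells. Lmnb1, the B-type lamin of the nuclear envelope, was at 2.51 FPKM in CBD and 34.1 FPKM in DMSO cells, and the ephrin receptor Ephb4 at 4.94 FPKM in CBD and 55.3 FPKM in DMSO cells. Gemin4, Sertad4, Ankrd52, Tns3, Fam83h and Filip1l completed the group, with CBD values between 0.944 and 3.02 FPKM and DMSO values between 19.1 and 39.4 FPKM. All 15 passed under each of the 3 scalings above.

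**Figure D2:**
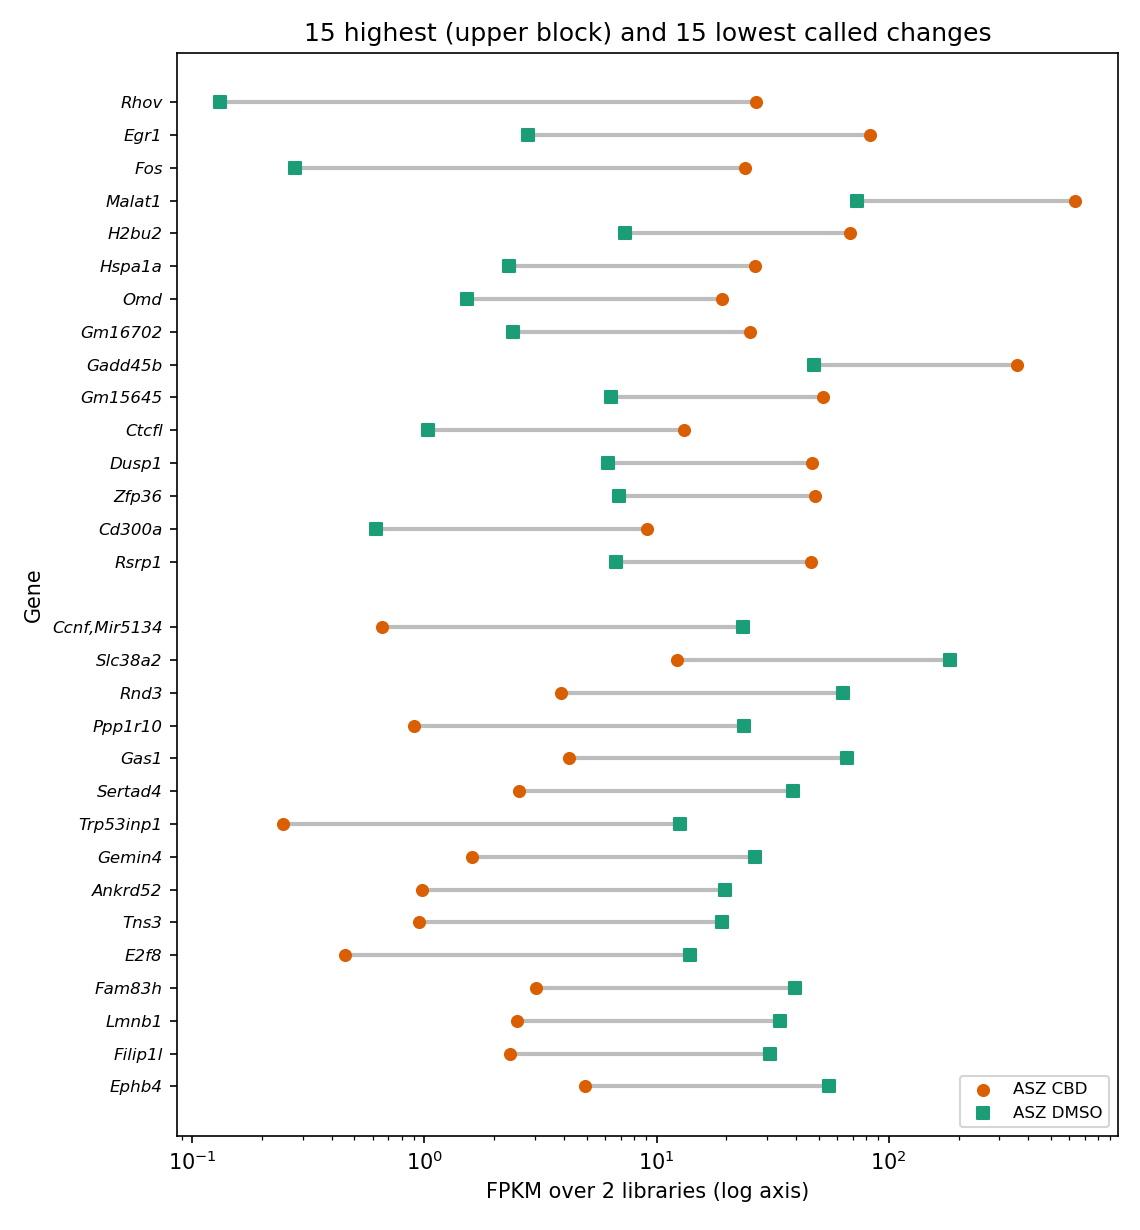
FPKM over the 2 libraries of each group, on a log axis, for the 15 genes with the highest and the 15 with the lowest called change, with circles for ASZ CBD and squares for ASZ DMSO. In the upper block CBD lies to the right for every gene, at up to 634 FPKM for Malat1, and in the lower block to the left, at down to 0.246 FPKM for Trp53inp1.

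Change was related to transcript length. Across 10543 genes matched to a GENCODE transcript, Spearman's rank correlation between length and change was -0.52; these are genes of the same libraries and not independent replicates. When protein-coding genes were put in 10 equal bins by length, in the shortest bin, up to 1233 nt, 45.5% rose, 7.25% fell and the median change was 0.56. In the longest bin, from 6491 nt, 1.37% rose, 79.4% fell and the median was -1.15. Over the 10 bins the median fell at every step. Medians by exon number ran in different orders in 3 length classes. In the middle class, 2281 to 3937 nt, the median was -0.67 with 1 to 6 exons, -0.39 with 7 to 13 and -0.28 with 14 or more. In the short class the order was the opposite, at 0.27, 0.21 and 0.093, and in the long class the medians were -1.05, -0.95 and -0.94. The 235 genes with 1 exon had a median of -0.73, which is -0.55 relative to genes of like length, and the 1342 genes with more than 20 exons had -0.74 and 0.15. Over genes of short, middle and long span on the chromosome, the medians were 0.33, 0.14 and 0.068 in the short length class, -0.39, -0.40 and -0.50 in the middle class and -0.88, -0.85 and -1.02 in the long class. RNA quality per library is not in the tables used here, and its part in the relation with length was not tested.

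**Figure D3:**
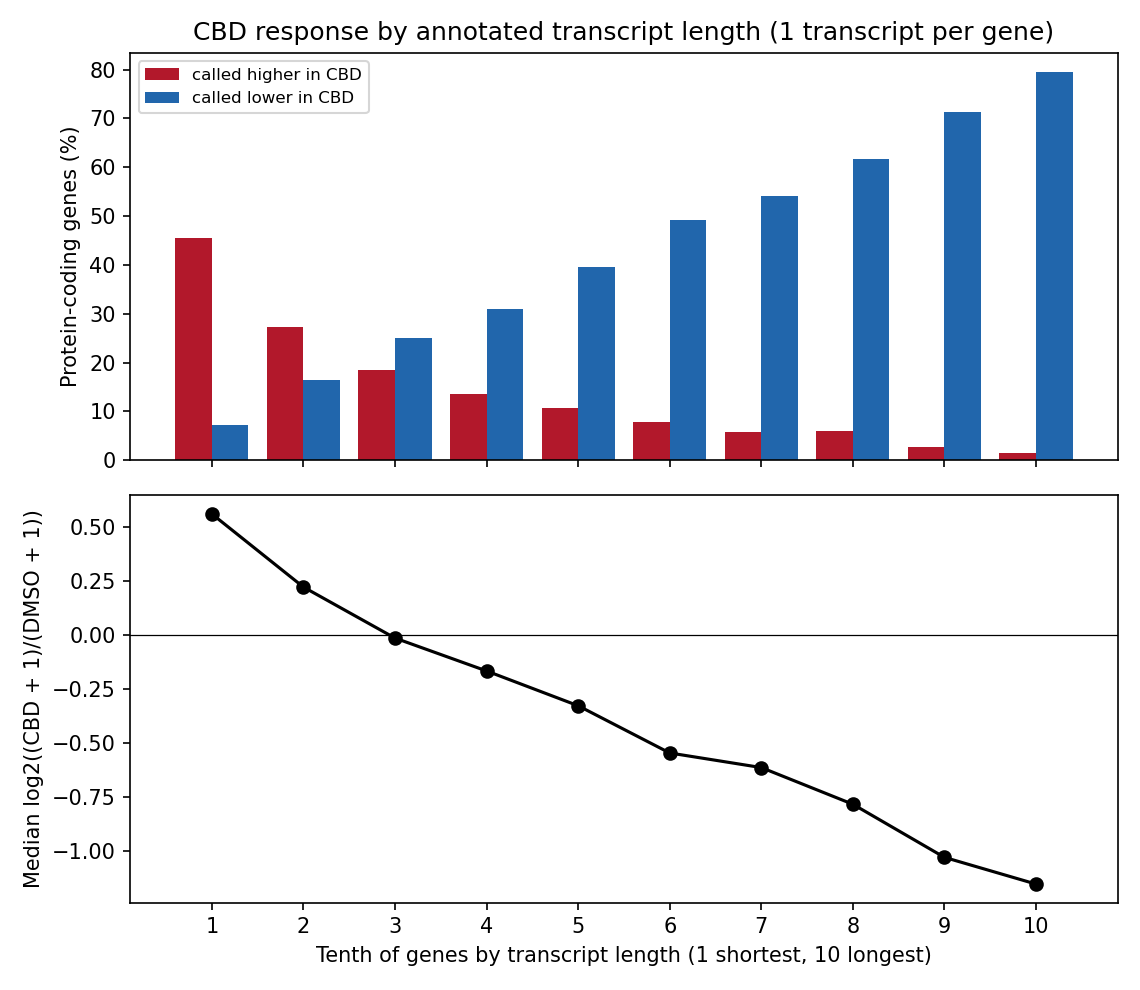
Protein-coding genes in 10 equal bins of transcript length, with the percentage called higher (red) and lower (blue) in ASZ CBD against ASZ DMSO above and the median log2((CBD + 1)/(DMSO + 1)) below. The share called lower climbs to 79.4% in the longest bin and the median falls from bin to bin, to -1.15.

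Some genes went against this relation. Of the 1055 longest of all matched genes, from 6440 nt, 16 rose. They included the noncoding RNAs Malat1 and Neat1 and the matrix protein fibronectin, Fn1, at 356 FPKM in CBD and 151 FPKM in DMSO cells. Slc7a14, a transporter of cationic amino acids, was at 4.32 FPKM in CBD and 0.541 FPKM in DMSO cells. Of the 1055 shortest, up to 1159 nt, 70 fell, among them Gemin6, part of the SMN complex, at 2.49 FPKM in CBD and 11.3 FPKM in DMSO cells. By biotype, 15 of 72 lincRNA genes rose and 9 fell, at a median of 0.33, while 14% of all genes tested rose and 42.4% fell. Of 39 snoRNA genes none was called in either direction, although their median was 2.04; their transcripts have a median of 131 nt, a size at which FPKM is uncertain.

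Most AP-1 genes were higher, and the other early response genes were called in both directions. Of 9 AP-1 genes, which encode Fos, Jun and Atf factors that pair to bind DNA, 6 rose and 2 fell (median change 1.40, or 1.76 relative to all genes and 1.37 relative to genes of like transcript length). Fosb was at 3.86 FPKM in CBD and 0.36004 FPKM in DMSO cells, Atf3 at 9.03 FPKM in CBD and 2.36 FPKM in DMSO cells and Jund at 327 FPKM in CBD and 108 FPKM in DMSO cells. Jun and Junb also rose. The 2 that fell were Fosl2, at 13.95 FPKM in CBD and 68.7 FPKM in DMSO cells, and Jdp2, a repressor of AP-1, at 3.01 FPKM in CBD and 7.66 FPKM in DMSO cells. Of 15 Egr, Nr4a, Ier and Klf genes, 7 rose and 3 fell (46.7% and 20%, against 14% and 42.4% of all genes). Their median change was 0.26, or 0.34 relative to genes of like transcript length. With equal FPKM sums 6 of them rose and 4 fell, at a median of -0.23. Csrnp1 was at 14.9 FPKM in CBD and 1.99 FPKM in DMSO cells and Ier2 at 102 FPKM in CBD and 19.8 FPKM in DMSO cells. Those that fell were the Krüppel-like factors Klf4 and Klf10 and the nuclear receptor Nr4a2, with Klf10 at 5.82 FPKM in CBD and 21.3 FPKM in DMSO cells. Among 10 MAP kinase phosphatases 3 rose and 4 fell, although 3 rose and 2 fell with equal medians and 4 and 2 relative to genes of like length. As deposited, 30% rose and 40% fell, against 14% and 42.4% of all genes. Dusp4, which acts on nuclear ERK, was at 3.896 FPKM in CBD and 0.312 FPKM in DMSO cells, against which Dusp16, a JNK phosphatase, stood at 2.53 FPKM in CBD and 13.03 FPKM in DMSO cells. Of the 12 Gadd45, Zfp36, Tob and Btg genes, 4 rose and 3 fell, although 4 rose and 6 fell with equal FPKM sums and 4 and 4 with equal fragment mass. All 3 Gadd45 genes rose, Gadd45g at 40.6 FPKM in CBD and 14.1 FPKM in DMSO cells. Jun no longer passed with equal FPKM sums, Nr4a2 no longer passed with equal medians, and Klf4 and Nr4a2 no longer passed relative to genes of like length.

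Core clock genes were called in both directions. Of 15 genes, 6 rose and 7 fell, although 6 rose and 6 fell with equal medians and 7 and 3 relative to genes of like length. As deposited, 40% rose and 46.7% fell, against 14% and 42.4% of all genes. Nr1d1, the nuclear receptor that represses Arntl, was at 195 FPKM in CBD and 36.4 FPKM in DMSO cells. Per1, a period gene of the negative arm, was at 39.03 FPKM in CBD and 14.1 FPKM in DMSO cells and Ciart, another repressor, at 13.9 FPKM in CBD and 4.33 FPKM in DMSO cells. Arntl and Clock, which pair as the activator of the clock, both fell, at 1.102 FPKM in CBD and 8.39 FPKM in DMSO cells and 2.95 FPKM in CBD and 19.1 FPKM in DMSO cells. Of the genes named, the activators thus stood low and the repressors high, and the other called genes were not assigned to an arm.

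Receptors and pathway regulators at the cell surface were mostly lower. Of 9 EGF receptor family genes and ligands, 6 fell and 1 rose (median change -0.73, or -0.37 relative to all genes and -0.24 relative to genes of like transcript length). The ligand Hbegf was the one that rose, at 13.95 FPKM in CBD and 2.59 FPKM in DMSO cells. The receptors Egfr, Erbb2 and Erbb3 fell, Erbb2 at 7.84 FPKM in CBD and 32.7 FPKM in DMSO cells, as did Lrig1, a negative regulator of these receptors, at 1.303 FPKM in CBD and 13.4 FPKM in DMSO cells. Hbegf thus moved opposite to Egfr, Erbb2 and Erbb3, and no other ligand of the list rose. Of 14 Notch ligands, receptors and targets, 10 fell and 1 rose (median change -1.30, or -0.94 relative to all genes and -0.41 relative to genes of like transcript length). Notch1 was at 3.65 FPKM in CBD and 25.4 FPKM in DMSO cells, Notch2 at 0.987 FPKM in CBD and 14.3 FPKM in DMSO cells and the glycosyltransferase Lfng, which modifies Notch, at 5.798 FPKM in CBD and 43.4 FPKM in DMSO cells. Hes1, a repressor that Notch activates, was the one that rose, at 44.8 FPKM in CBD and 27.3 FPKM in DMSO cells. Of 26 Wnt receptors and feedback genes, 20 fell and 0 rose (median change -0.90, or -0.53 relative to all genes and -0.24 relative to genes of like transcript length). The frizzled receptor Fzd1 was at 3.81 FPKM in CBD and 40.5 FPKM in DMSO cells, the stem cell receptor Lgr4 at 13.2 FPKM in CBD and 72.7 FPKM in DMSO cells and the transducer Ctnnb1 at 88.9 FPKM in CBD and 153 FPKM in DMSO cells. Of 36 BMP, TGF-beta and Smad genes, 25 fell and 2 rose (median change -1.05, or -0.68 relative to all genes and -0.35 relative to genes of like transcript length). Tgfbr2 was at 1.399 FPKM in CBD and 12.5 FPKM in DMSO cells and the activin subunit Inhbb at 8.26 FPKM in CBD and 47.8 FPKM in DMSO cells, while the BMP antagonist Nog rose at low level, at 1.92 FPKM in CBD and 0.8003 FPKM in DMSO cells. Of 25 PI3 kinase, Akt and Foxo genes, 18 fell and 1 rose (median change -1.005, or -0.64 relative to all genes and 0.045 relative to genes of like transcript length). The regulatory subunits led the falls, with Pik3r1 at 0.681 FPKM in CBD and 9.26 FPKM in DMSO cells and Pik3r3 at 0.434 FPKM in CBD and 8.08 FPKM in DMSO cells. Akt1 itself, at 67.3 FPKM in CBD and 56.02 FPKM in DMSO cells, did not pass. Relative to genes of like length the PI3 kinase median was near 0, whereas the Notch and BMP medians stayed below it. Hes1 and Nog no longer passed with equal FPKM sums, and Egfr and Ctnnb1 no longer passed with equal medians. Relative to genes of like length, Egfr, Erbb2, Hes1 and Ctnnb1 no longer passed. Akt1 passed as higher with equal medians and relative to genes of like length. The change of Egfr was 0.60 after division by the median ratio of genes of like length and 0.21 after subtraction of their median change.

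Inflammatory genes were called in both directions. Of 12 NF-kB genes 5 fell and 1 rose (41.7% and 8.33%, against 42.4% and 14% of all genes), although 2 rose and 2 fell relative to genes of like length. Nfkbiz, an inducible nuclear IκB, was the one that rose, and the NF-kB subunits Nfkb1 and Rel fell, Rel at 2.88 FPKM in CBD and 7.898 FPKM in DMSO cells. Of 12 genes of cytokines, chemokines and prostaglandin synthesis 2 fell and 1 rose, although 3 rose and 1 fell with equal medians. The deposited shares were 16.7% and 8.33%, against 42.4% and 14% of all genes. Ptgs2, the inducible prostaglandin synthase, was the one that rose, at 30.3 FPKM in CBD and 16.6 FPKM in DMSO cells. Of 18 interferon response genes 6 fell and 2 rose (33.3% and 11.1%, against 42.4% and 14% of all genes), although 5 rose and 5 fell with equal medians. The antigen presentation genes B2m and H2-K1 rose, B2m at 173 FPKM in CBD and 89.9 FPKM in DMSO cells. Ptgs2 and B2m no longer passed with equal FPKM sums, and Nfkb1, Rel and B2m no longer passed relative to genes of like length. The change of Rel was 0.13 after division by the median ratio of genes of like length and -0.056 after subtraction of their median change.

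Genes of the transcription machinery were called in both directions. Of 13 RNA polymerase II subunits, 8 rose and 2 fell, although 3 rose and 4 fell with equal FPKM sums, and 2 rose and 1 fell relative to genes of like length. The 2 that fell were the large catalytic subunits, Polr2a at 30.3 FPKM in CBD and 53.6 FPKM in DMSO cells and Polr2b at 11.5 FPKM in CBD and 41.2 FPKM in DMSO cells. Small subunits rose, such as Polr2g at 166 FPKM in CBD and 74.9 FPKM in DMSO cells and Polr2k at 84.6 FPKM in CBD and 38.1 FPKM in DMSO cells. Of 33 P-TEFb, elongation and BET genes, 19 fell and 2 rose (median change -0.71, or -0.35 relative to all genes and -0.19 relative to genes of like transcript length). In this list 57.6% fell and 6.06% rose, against 42.4% and 14% of all genes. Cdk9, the kinase of P-TEFb that releases paused polymerase, was at 8.38 FPKM in CBD and 18.2 FPKM in DMSO cells, and its cyclin Ccnt1 at 1.83 FPKM in CBD and 8.91 FPKM in DMSO cells. Hexim1, which holds P-TEFb inactive, was at 7.85 FPKM in CBD and 21.03 FPKM in DMSO cells. Kinase, cyclin and inhibitor were thus all lower. Of 53 Mediator and TAF subunits, 24 fell and 6 rose (45.3% and 11.3%, against 42.4% and 14% of all genes). Med13l was at 2.51 FPKM in CBD and 15.97 FPKM in DMSO cells, and Taf10, a small TFIID subunit, rose at 329 FPKM in CBD and 148 FPKM in DMSO cells. Of 105 chromatin modifiers, 64 fell and 4 rose, although 28 rose and 27 fell relative to genes of like length. The acetyltransferase Ep300 was at 0.903 FPKM in CBD and 10.4 FPKM in DMSO cells and the Polycomb subunit Suz12 at 5.64 FPKM in CBD and 39.4 FPKM in DMSO cells. The deacetylases Hdac1, Hdac3 and Sirt2 and the methyltransferase Prmt1 were the 4 that rose. Polr2k, Hdac1, Hdac3, Sirt2 and Prmt1 no longer passed with equal FPKM sums, Polr2a no longer passed with equal medians, and Polr2b, Polr2g, Polr2k, Ccnt1 and Prmt1 no longer passed relative to genes of like length. The change of Polr2a was 0.77 after division by the median ratio of genes of like length and 0.34 after subtraction of their median change. Relative to genes of like length Polr2a passed as higher.

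Most zinc finger genes fell. Of 263 Zfp genes tested, 211 fell, 80.2% of them against 42.4% of all genes, and 3 rose (median change -1.10, or -0.74 relative to all genes and -0.56 relative to genes of like transcript length). Zfp638 was at 1.37 FPKM in CBD and 15.6 FPKM in DMSO cells, Zfp62 at 0.836 FPKM in CBD and 10.3 FPKM in DMSO cells and Zfp260 at 1.22 FPKM in CBD and 11.5 FPKM in DMSO cells. Of the 3 that rose, Zfp36 is the decay factor above, and Zfp296 and Zfp641 were at 14.6 FPKM in CBD and 8.72 FPKM in DMSO cells and 1.83 FPKM in CBD and 0.796 FPKM in DMSO cells. The most abundant members, Zfp706 and Zfp207, did not pass, with Zfp706 at 61.5 FPKM in CBD and 45.9 FPKM in DMSO cells. Zfp296 and Zfp641 no longer passed with equal FPKM sums, and Zfp296 no longer passed relative to genes of like length. Zfp207 passed as lower with equal FPKM sums, and Zfp706 passed as higher with equal medians and relative to genes of like length.

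As deposited, most SR splicing factors fell and most of the nuclear noncoding RNAs rose. Of 20 SR splicing factors and Clk kinases, 15 fell and 1 rose (median change -0.93, or -0.56 relative to all genes and -0.49 relative to genes of like transcript length). Relative to genes of like length 9 fell and 3 rose. Srsf1 was at 14.8 FPKM in CBD and 58.3 FPKM in DMSO cells and Srsf2 at 107 FPKM in CBD and 183 FPKM in DMSO cells, while Srsf11 rose, at 26.9 FPKM in CBD and 13.5 FPKM in DMSO cells. Of 33 mRNA decay genes, 19 fell and 3 rose, although 13 rose and 9 fell relative to genes of like length. The deposited shares were 57.6% and 9.09%, against 42.4% and 14% of all genes. The helicase Ddx6 of P-bodies was at 5.84 FPKM in CBD and 51.2 FPKM in DMSO cells, the deadenylases Cnot6 and Cnot6l at 11.9 FPKM in CBD and 52.8 FPKM in DMSO cells and 3.42 FPKM in CBD and 19.3 FPKM in DMSO cells, and the decapping enzyme Dcp2 at 1.28 FPKM in CBD and 6.94 FPKM in DMSO cells. Pabpc1, the poly(A)-binding protein, rose, at 1056 FPKM in CBD and 585 FPKM in DMSO cells. Of 46 DEAD and DEAH box helicases, 26 fell and 5 rose, although 14 rose and 9 fell relative to genes of like length. Among these helicases 56.5% fell and 10.9% rose as deposited, against 42.4% and 14% of all genes. Ddx3x was at 12.5 FPKM in CBD and 62.7 FPKM in DMSO cells and the nucleolar helicase Ddx18, which rose, at 55.5 FPKM in CBD and 28.5 FPKM in DMSO cells. Of 31 nuclear pore and transport genes, 16 fell and 0 rose (median change -0.55, or -0.18 relative to all genes and 0.025 relative to genes of like transcript length). In this list 51.6% fell and 0% rose, against 42.4% and 14% of all genes. The importin Kpna2 was at 23.9 FPKM in CBD and 191 FPKM in DMSO cells, the export receptor Xpo1 at 13.9 FPKM in CBD and 48.8 FPKM in DMSO cells and the pore protein Ranbp2 at 0.681 FPKM in CBD and 11.1 FPKM in DMSO cells. Of 9 SMN complex genes, which assemble spliceosomal particles, 4 fell and 1 rose (44.4% and 11.1%, against 42.4% and 14% of all genes), Smn1 at 29.1 FPKM in CBD and 19.4 FPKM in DMSO cells. Of 23 nuclear and snoRNA host noncoding RNAs, 14 rose and 2 fell (median change 0.99, or 1.36 relative to all genes and 0.59 relative to genes of like transcript length). With equal FPKM sums 8 rose and 2 fell, and relative to genes of like length 7 rose and 2 fell. Neat1, the scaffold of paraspeckles, was at 20.3 FPKM in CBD and 4.42 FPKM in DMSO cells. Snhg1, which carries snoRNAs in its introns, was at 239 FPKM in CBD and 90.1 FPKM in DMSO cells, and Rmrp, the RNA of RNase MRP, at 75.3 FPKM in CBD and 20.3 FPKM in DMSO cells. The 2 that fell were Snhg14 and Mir22hg, with Snhg14 at 0.413 FPKM in CBD and 5.78 FPKM in DMSO cells. Srsf11, Pabpc1, Ddx18 and Smn1 no longer passed with equal FPKM sums, Srsf2 no longer passed with equal medians, and Xpo1 and Smn1 no longer passed relative to genes of like length.

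Most histone genes lie in clusters and are expressed in S phase. Of 44, 9 rose and 9 fell, although 7 rose and 16 fell with equal FPKM sums, 11 and 7 with equal medians, 8 and 9 with equal fragment mass and 9 and 12 relative to genes of like length. As deposited, 20.5% rose and 20.5% fell, against 14% and 42.4% of all genes. The genes that rose included H2aw at 153 FPKM in CBD and 30.6 FPKM in DMSO cells, H1f2 at 104 FPKM in CBD and 25.05 FPKM in DMSO cells, H2bc4 at 55.1 FPKM in CBD and 10.4 FPKM in DMSO cells and H4c9 at 27.2 FPKM in CBD and 4.14 FPKM in DMSO cells. Those that fell were at low level, such as H2ac15 at 0.601 FPKM in CBD and 4.11 FPKM in DMSO cells and H3c6 at 0.243 FPKM in CBD and 3.28 FPKM in DMSO cells. The polyadenylated variant genes H3f3a and H3f3b were abundant and did not pass, with H3f3b at 937 FPKM in CBD and 694 FPKM in DMSO cells. Histone genes are near-identical, so reads may have been split between copies. H3f3a passed as lower with equal FPKM sums, and H3f3b passed as higher with equal medians and relative to genes of like length.

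Most cytosolic ribosomal protein genes rose. Of 80 cytosolic ribosomal protein genes, 78 rose, 97.5% against 14% of all genes, and 1 fell (median change 1.23, or 1.60 relative to all genes and 0.69 relative to genes of like transcript length). Rpl41, the most abundant gene of the CBD group, was at 11096 FPKM in CBD and 3304 FPKM in DMSO cells and Rps12 at 3501 FPKM in CBD and 1102 FPKM in DMSO cells. The member that fell was Rpl7l1, a relative of Rpl7, at 33.7 FPKM in CBD and 53.03 FPKM in DMSO cells. With equal FPKM sums 71 still rose. Of 60 initiation and elongation factors, 22 rose and 12 fell, although 10 rose and 20 fell with equal FPKM sums. Eef2, the elongation factor that moves the ribosome, was at 2140.0 FPKM in CBD and 992 FPKM in DMSO cells and Eif3k at 303 FPKM in CBD and 138 FPKM in DMSO cells, while Eif4ebp2, a repressor of cap-dependent initiation, was at 4.35 FPKM in CBD and 18.9 FPKM in DMSO cells. Of 37 ribosome biogenesis genes, 10 fell and 2 rose, although 14 rose and 6 fell with equal medians and 12 and 9 relative to genes of like length. Over all genes 42.4% fell, against 27.0% of this list. Rrp1b was at 2.79 FPKM in CBD and 15.2 FPKM in DMSO cells and Npm1, nucleophosmin, at 1354 FPKM in CBD and 713 FPKM in DMSO cells. Of 36 amino acid response and tRNA synthetase genes, 10 rose and 2 fell, although 2 rose and 9 fell with equal FPKM sums. Cebpb, a transcription factor of this response, was at 75.7 FPKM in CBD and 25.3 FPKM in DMSO cells and the serine synthesis enzyme Phgdh at 204 FPKM in CBD and 116 FPKM in DMSO cells. Atf4, which drives the response, was at 99.1 FPKM in CBD and 73.02 FPKM in DMSO cells and did not pass. Ddit4, a stress-inducible inhibitor of mTORC1, fell, at 10.8 FPKM in CBD and 24.8 FPKM in DMSO cells. Npm1 and Phgdh no longer passed with equal FPKM sums, Rpl7l1 no longer passed with equal medians, and Rpl7l1 and Eif3k no longer passed relative to genes of like length. Atf4 passed as higher with equal medians.

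Genes of protein turnover were called in both directions. Of 12 ubiquitin and ubiquitin-like genes, 7 rose and 0 fell (median change 0.78, or 1.15 relative to all genes and 0.68 relative to genes of like transcript length). Ubb, a stress-inducible polyubiquitin gene, was at 755 FPKM in CBD and 362 FPKM in DMSO cells. Of 38 proteasome subunit genes, 14 rose and 3 fell, although 2 rose and 6 fell with equal FPKM sums. Psmd8, a lid subunit, was at 216 FPKM in CBD and 88.7 FPKM in DMSO cells and Psmd7, another, fell at 73.4 FPKM in CBD and 126 FPKM in DMSO cells. Of 36 lysosome and V-ATPase genes, 20 rose and 4 fell, although 6 rose and 8 fell with equal FPKM sums. The protease Ctsd was at 563 FPKM in CBD and 252 FPKM in DMSO cells and the membrane protein Lamp1 at 628 FPKM in CBD and 346 FPKM in DMSO cells. The cholesterol exporter Npc1 fell, at 3.22 FPKM in CBD and 6.101 FPKM in DMSO cells. Of 31 autophagy genes, 13 fell and 4 rose (41.9% and 12.9%, against 42.4% and 14% of all genes), although 10 rose and 8 fell with equal medians and 8 and 4 relative to genes of like length. The initiating kinase Ulk1 was at 3.87 FPKM in CBD and 23.8 FPKM in DMSO cells and its partner Rb1cc1 at 1.79 FPKM in CBD and 11.9 FPKM in DMSO cells, whereas Gabarap and Map1lc3a, which coat the autophagosome, rose, Gabarap at 554 FPKM in CBD and 259 FPKM in DMSO cells. Of 24 endoplasmic reticulum chaperone and degradation genes, 10 rose and 8 fell, although 1 rose and 10 fell with equal FPKM sums and 9 and 9 with equal fragment mass. Calreticulin, Calr, was at 759.9 FPKM in CBD and 356 FPKM in DMSO cells, the chaperone Hspa5 did not pass at 217 FPKM in CBD and 158 FPKM in DMSO cells, and the sensor Eif2ak3 and the transcription factor Xbp1 fell, Xbp1 at 12.2 FPKM in CBD and 27.7 FPKM in DMSO cells. Lamp1 no longer passed with equal FPKM sums, and Psmd7 and Npc1 no longer passed with equal medians. Relative to genes of like length, Npc1 and Map1lc3a no longer passed. Hspa5 passed as higher with equal medians and relative to genes of like length. The change of Npc1 was 0.38 after division by the median ratio of genes of like length and 0.27 after subtraction of their median change.

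In metabolism, most respiratory chain genes rose. Of 79 nuclear oxidative phosphorylation subunits, 62 rose and 0 fell (median change 0.78, or 1.15 relative to all genes and 0.32 relative to genes of like transcript length). The ATP synthase subunits Atp5e and Atp5b were at 789.5 FPKM in CBD and 331 FPKM in DMSO cells and 1554 FPKM in CBD and 680.0 FPKM in DMSO cells. With equal FPKM sums 16 of the 79 rose and 1 fell, and relative to genes of like length 19 rose and 1 fell. Of 75 mitochondrial ribosomal protein genes, 26 rose and 8 fell, although 3 rose and 14 fell with equal FPKM sums. Mrpl33 was at 279.7 FPKM in CBD and 129 FPKM in DMSO cells and Mrpl50 at 6.35 FPKM in CBD and 17.02 FPKM in DMSO cells. Of 29 glycolysis and hypoxia response genes, 10 rose and 5 fell, although 5 rose and 9 fell with equal FPKM sums. The glycolytic enzymes Aldoa and Ldha were at 931 FPKM in CBD and 397 FPKM in DMSO cells and 806 FPKM in CBD and 396 FPKM in DMSO cells. The entry steps and the oxygen-regulated factor went the other way, with the hexokinase Hk2 at 2.57 FPKM in CBD and 11.9 FPKM in DMSO cells, the glucose transporter Slc2a1 at 38.2 FPKM in CBD and 108 FPKM in DMSO cells and Hif1a at 16.7 FPKM in CBD and 55.6 FPKM in DMSO cells. Of 31 cholesterol and lipid synthesis genes, 11 fell and 2 rose, although 10 rose and 7 fell with equal medians and 13 and 5 relative to genes of like length. As deposited, 35.5% fell, against 42.4% of all genes. The desaturase Scd2 was at 93.4 FPKM in CBD and 455 FPKM in DMSO cells and the regulator Srebf1 at 24.98 FPKM in CBD and 65.1 FPKM in DMSO cells. Fdps and Pmvk, enzymes of cholesterol synthesis, were the 2 that rose, Fdps at 201 FPKM in CBD and 129.6 FPKM in DMSO cells. Fdps no longer passed with equal FPKM sums, and Mrpl33, Srebf1 and Fdps no longer passed relative to genes of like length.

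Antioxidant and metal genes also split. Of 31 NRF2 and glutathione genes, 14 rose and 7 fell, although 4 rose and 11 fell with equal FPKM sums. Ferritin light chain, Ftl1, was at 4375 FPKM in CBD and 1352 FPKM in DMSO cells, the glutathione transferase Gsta4 at 30.8 FPKM in CBD and 8.73 FPKM in DMSO cells, the peroxidase Gpx4 at 189 FPKM in CBD and 81.5 FPKM in DMSO cells and haem oxygenase, Hmox1, at 20.6 FPKM in CBD and 10.3 FPKM in DMSO cells. Nfe2l2, which encodes NRF2, fell, at 4.83 FPKM in CBD and 20.3 FPKM in DMSO cells, and so did its classical targets Txnrd1, at 2.58 FPKM in CBD and 16.8 FPKM in DMSO cells, and Gclc, at 5.98 FPKM in CBD and 23.1 FPKM in DMSO cells. Nqo1, another target, was at 13.3 FPKM in CBD and 9.11 FPKM in DMSO cells and did not pass. Targets of this factor were therefore found in each direction. Of 9 metallothionein and metal genes, 4 rose and 4 fell, although 3 rose and 4 fell with equal FPKM sums, 5 and 4 with equal medians and 4 and 2 relative to genes of like length. Mt2 and Mt1, which bind zinc, were at 1795 FPKM in CBD and 713 FPKM in DMSO cells and 1760.4 FPKM in CBD and 1103 FPKM in DMSO cells, and the zinc-sensing factor Mtf1 was at 0.615 FPKM in CBD and 3.03 FPKM in DMSO cells. Of 6 aryl hydrocarbon receptor genes, 4 fell and 1 rose, although 2 rose and 2 fell with equal medians. The target Cyp1b1, which oxidises polycyclic aromatic compounds, was at 5.19 FPKM in CBD and 52.5 FPKM in DMSO cells and the receptor Ahr at 1.07 FPKM in CBD and 3.33 FPKM in DMSO cells. Of 161 solute carriers, 87 fell and 12 rose (median change -0.61, or -0.25 relative to all genes and -0.064 relative to genes of like transcript length). Among solute carriers 54.0% fell and 7.45% rose, against 42.4% and 14% of all genes. The taurine transporter Slc6a6 was at 37.96 FPKM in CBD and 259 FPKM in DMSO cells and the zinc transporter Slc39a10 at 3.68 FPKM in CBD and 26.2 FPKM in DMSO cells, and the mitochondrial citrate carrier Slc25a1 rose, at 95.9 FPKM in CBD and 40.8 FPKM in DMSO cells. Hmox1 and Mt1 no longer passed with equal FPKM sums, and Mt1, Mtf1 and Ahr no longer passed relative to genes of like length. Nqo1 passed as higher with equal medians.

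Genes of the cytoskeleton were called in both directions. Of 27 actin cytoskeleton genes, 15 rose and 4 fell, although 7 rose and 9 fell with equal FPKM sums. Cnn2, a calponin, was at 82.1 FPKM in CBD and 25.2 FPKM in DMSO cells, the myosin light chain Myl6 at 1735 FPKM in CBD and 617 FPKM in DMSO cells and cofilin, Cfl1, at 1414 FPKM in CBD and 593 FPKM in DMSO cells. Actb and Actg1, the cytoplasmic actins, did not pass, with Actb at 1444 FPKM in CBD and 1818 FPKM in DMSO cells. Of 12 alpha and beta tubulins, 3 fell and 1 rose, although 5 rose and 3 fell with equal medians. The share of tubulins that fell was 25%, against 42.4% of all genes. Tubb4b was at 68.1 FPKM in CBD and 271 FPKM in DMSO cells and Tuba4a at 28.4 FPKM in CBD and 85.96 FPKM in DMSO cells, and Tubb2b rose, at 32.9 FPKM in CBD and 14.2 FPKM in DMSO cells. Of 33 kinesin genes, the motors that walk on these filaments, 25 fell and 1 rose (median change -1.13, or -0.76 relative to all genes and -0.29 relative to genes of like transcript length). The mitotic kinesins Kif20b and Kif18b were at 0.845 FPKM in CBD and 9.398 FPKM in DMSO cells and 2.87 FPKM in CBD and 20.5 FPKM in DMSO cells, while the transport kinesin Kif5b, at 27.4 FPKM in CBD and 34.4 FPKM in DMSO cells, did not pass. Of 23 dynein and dynactin genes, 7 rose and 4 fell, although 2 rose and 7 fell with equal FPKM sums. Dctn2 was at 202 FPKM in CBD and 86.2 FPKM in DMSO cells and Pafah1b1, the dynein regulator Lis1, at 10.8 FPKM in CBD and 74.4 FPKM in DMSO cells. Of 43 Rab GTPases, 11 fell and 8 rose, although 17 rose and 5 fell with equal medians and 14 and 8 relative to genes of like length. As deposited, 25.6% fell and 18.6% rose, against 42.4% and 14% of all genes. Rab25, an epithelial recycling Rab, was at 90.4 FPKM in CBD and 28.8 FPKM in DMSO cells and Rab23, a negative regulator of Hedgehog signalling, at 1.28 FPKM in CBD and 7.86 FPKM in DMSO cells. Actb and Kif5b passed as lower with equal FPKM sums, and Actg1 passed as higher with equal medians. Relative to genes of like length Kif5b passed as higher. The change of Kif5b was 1.001 after division by the median ratio of genes of like length and 0.70 after subtraction of their median change.

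Adhesion, matrix and keratin genes gave mixed calls. Of 27 hemidesmosome, desmosome and junction genes, 10 fell and 6 rose, although 12 rose and 7 fell with equal medians and 12 and 1 relative to genes of like length. As deposited, 37.0% fell and 22.2% rose, against 42.4% and 14% of all genes. The tight junction scaffold Tjp1 was at 2.27 FPKM in CBD and 17.5 FPKM in DMSO cells, the linker Dst at 64.5 FPKM in CBD and 245 FPKM in DMSO cells and P-cadherin, Cdh3, at 46.4 FPKM in CBD and 116 FPKM in DMSO cells. Cldn4, a claudin, rose, at 9.78 FPKM in CBD and 2.83 FPKM in DMSO cells, as did the laminin-332 chains Lamb3 and Lama3, Lamb3 at 315 FPKM in CBD and 204 FPKM in DMSO cells. Of 24 mesenchymal and matrix genes, 6 fell and 5 rose, although 11 rose and 5 fell with equal medians and 13 and 3 relative to genes of like length. The deposited shares were 25% and 20.8%, against 42.4% and 14% of all genes. Thrombospondin 1, Thbs1, was at 92.3 FPKM in CBD and 338 FPKM in DMSO cells, N-cadherin, Cdh2, at 15.4 FPKM in CBD and 54.7 FPKM in DMSO cells and the transcription factor Snai2 at 9.93 FPKM in CBD and 28.7 FPKM in DMSO cells. Sparc and Timp3 rose, Timp3 at 329 FPKM in CBD and 201 FPKM in DMSO cells, and so did the collagen-crosslinking oxidase Loxl2, at 3.29 FPKM in CBD and 0.482 FPKM in DMSO cells. Of 11 keratin genes, 4 fell and 2 rose, although 3 rose and 2 fell with equal medians and 3 and 3 relative to genes of like length. Among keratins 36.4% thus fell and 18.2% rose as deposited, against 42.4% and 14% of all genes. Krt15, a keratin of hair follicle stem cells, was at 33.7 FPKM in CBD and 146 FPKM in DMSO cells, and Krt17, which is induced in activated keratinocytes and basal cell carcinoma, rose at 5701 FPKM in CBD and 2744 FPKM in DMSO cells. Lamb3, Lama3, Sparc, Timp3 and Krt17 no longer passed with equal FPKM sums, and Dst, Cdh3 and Thbs1 no longer passed relative to genes of like length.

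In the lists of growth control genes 30.8% to 60.0% of members fell, against 42.4% of all genes. Of 10 Myc, Max and Mxd genes, 6 fell and 0 rose (median change -0.85, or -0.48 relative to all genes and -0.60 relative to genes of like transcript length). Myc was at 13.7 FPKM in CBD and 36.5 FPKM in DMSO cells, its partner Max at 6.45 FPKM in CBD and 12.7 FPKM in DMSO cells and its antagonist Mnt at 1.804 FPKM in CBD and 13.9 FPKM in DMSO cells. Of 28 G1 cyclins, kinases and inhibitors, 15 fell and 1 rose (median change -0.60, or -0.24 relative to all genes and -0.40 relative to genes of like transcript length). Cdkn2a, which encodes inhibitors of Cdk4 and Mdm2, was the one that rose, at 208 FPKM in CBD and 99.9 FPKM in DMSO cells. Ccne2, an E-type cyclin, was at 0.622 FPKM in CBD and 5.96 FPKM in DMSO cells, and the E2F factors E2f3 and E2f7 fell with E2f8. The abundant Cdk4, at 240.1 FPKM in CBD and 227 FPKM in DMSO cells, and Ccnd1, at 34.2 FPKM in CBD and 36.5 FPKM in DMSO cells, did not pass. Of 25 p53 target genes, 14 fell and 4 rose (median change -0.66, or -0.30 relative to all genes and -0.04 relative to genes of like transcript length). Trp53 itself was at 68.6 FPKM in CBD and 123 FPKM in DMSO cells and its ubiquitin ligase Mdm2 at 5.69 FPKM in CBD and 18.1 FPKM in DMSO cells. Plk3, Bbc3, Bax and Perp were the 4 that rose, Plk3 at 12.2 FPKM in CBD and 2.21 FPKM in DMSO cells, and Cdkn1a, at 28.9 FPKM in CBD and 27.3 FPKM in DMSO cells, did not pass. In the Bcl2 family 4 of 13 rose and 4 fell, although 1 rose and 5 fell with equal FPKM sums, 7 and 4 with equal medians, 3 and 4 with equal fragment mass and 5 and 3 relative to genes of like length. The pro-apoptotic Bax was at 107 FPKM in CBD and 53.1 FPKM in DMSO cells and Bbc3 at 4.97 FPKM in CBD and 1.67 FPKM in DMSO cells, the anti-apoptotic Mcl1 was at 15.004 FPKM in CBD and 46.7 FPKM in DMSO cells, and the pro-apoptotic Bid and Bcl2l11 fell, Bid at 4.18 FPKM in CBD and 20.4 FPKM in DMSO cells. Of 49 DNA repair genes, 24 fell and 2 rose (median change -0.62, or -0.25 relative to all genes and -0.041 relative to genes of like transcript length). The mismatch repair gene Msh6 was at 3.21 FPKM in CBD and 23.9 FPKM in DMSO cells, Brca1 at 1.32 FPKM in CBD and 10.3 FPKM in DMSO cells and Brca2 at 0.158 FPKM in CBD and 4.11 FPKM in DMSO cells. Bax and Perp no longer passed with equal FPKM sums, Max and Trp53 no longer passed with equal medians, and Cdkn2a, Bax and Bcl2l11 no longer passed relative to genes of like length. Ccnd1 passed as lower with equal FPKM sums, and Cdk4 and Cdkn1a passed as higher with equal medians. Relative to genes of like length Ccnd1 passed as higher. The change of Ccnd1 was 0.65 after division by the median ratio of genes of like length and 0.52 after subtraction of their median change.

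**Figure D4:**
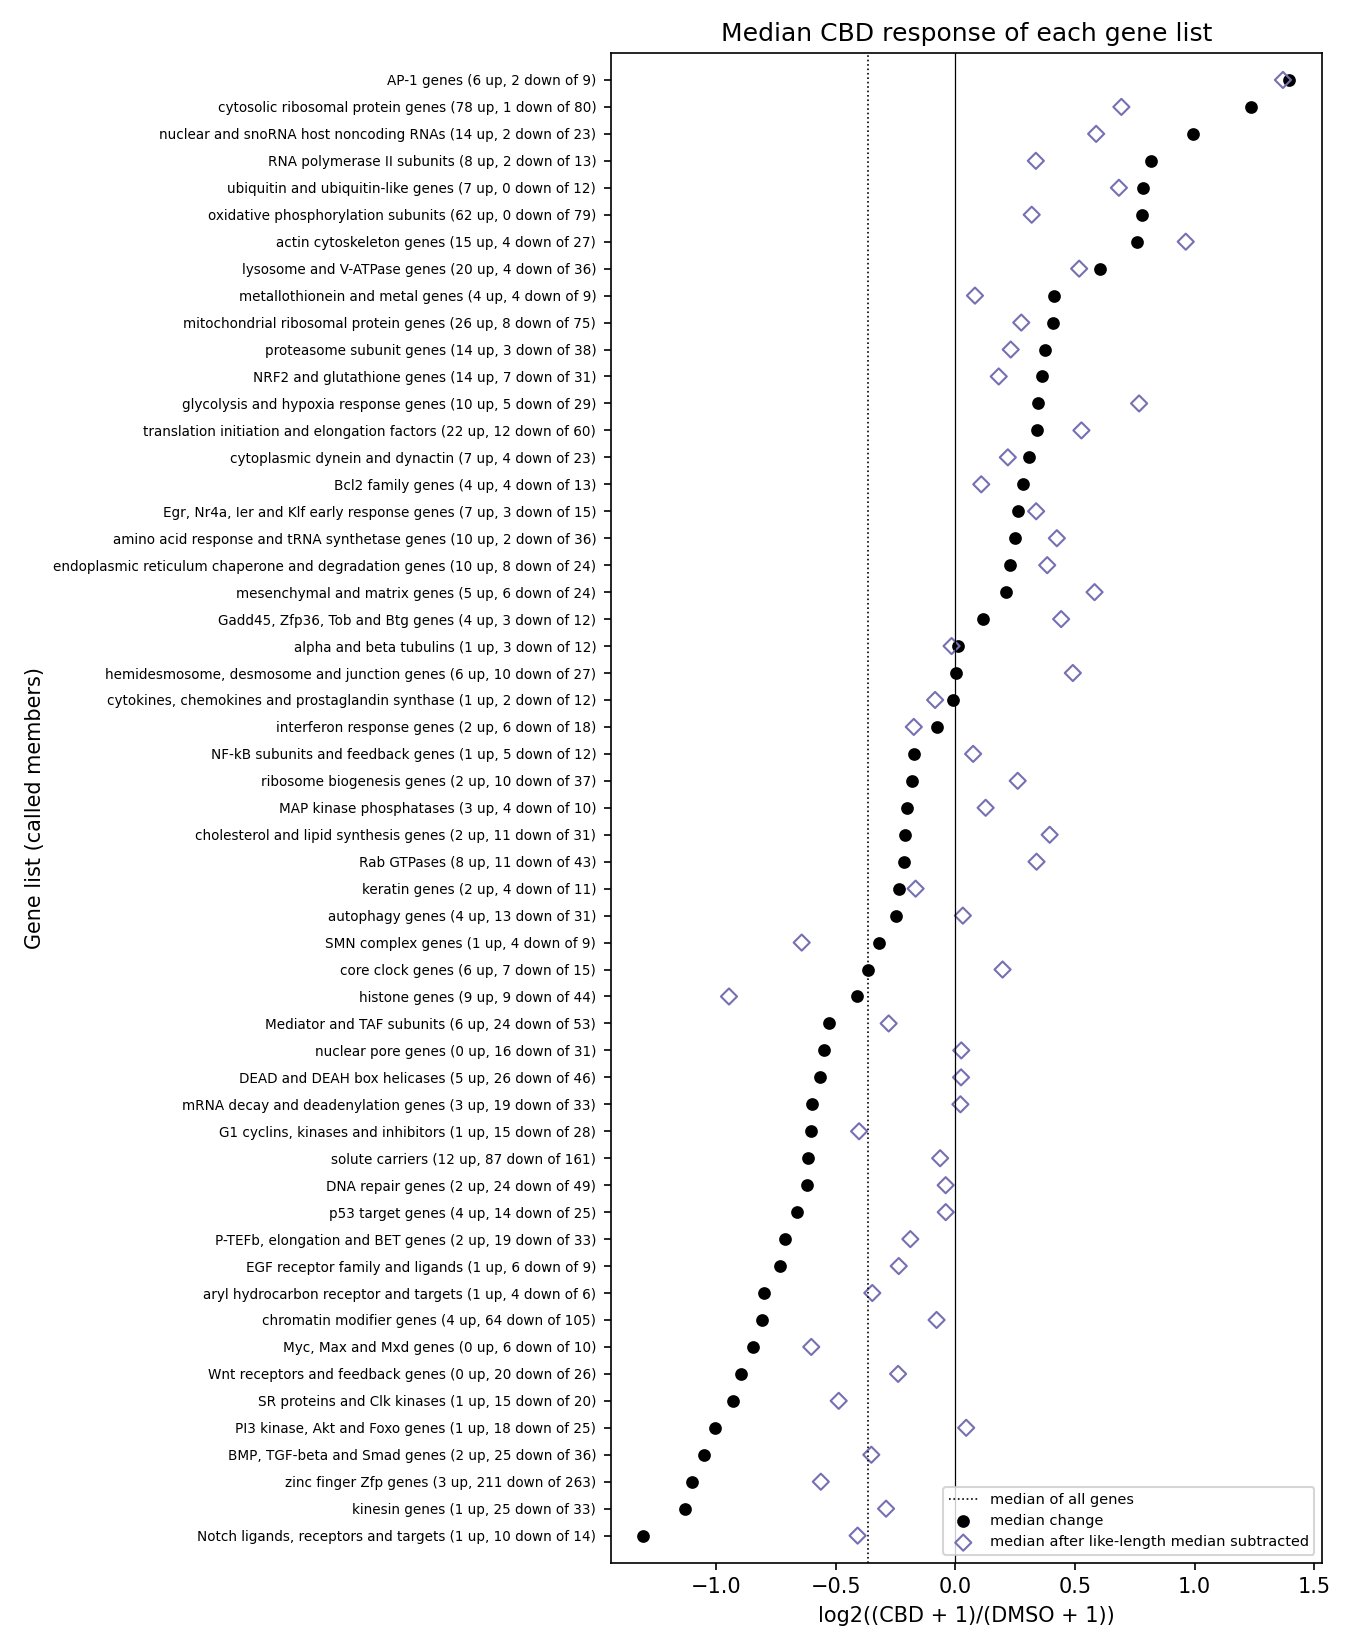
Filled circles give the median log2((CBD + 1)/(DMSO + 1)) of gene lists with at least 6 tested members, and open diamonds the median relative to genes of like length; the dotted line is the median of all genes, -0.37. AP-1 and ribosomal protein genes stand highest, at 1.40 and 1.23, and Notch genes lowest, at -1.30, while the PI3 kinase list stands near 0 once length is taken out.

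A few genes were listed at 0 in one group. In DMSO 28 genes were at 0, of which 1 was called, and the highest in CBD were the snoRNA Snora68, at 116 FPKM, and Pnpla3, at 82.8 FPKM, neither of which passed. In CBD 19 genes were at 0, of which 4 were called, and the highest in DMSO were the snoRNA Snord96a, at 66.1 FPKM, and the noncoding RNA Dubr, at 34.6 FPKM, neither of which passed. No fold is given for these genes.

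The same comparison in cells expressing RasV12 was set beside these genes, since it shares no library with the wild-type one. Over 10399 genes tested in both lines, the log2 ratio of ASZ cells was called above that of RasV12 cells for 60 (0.577%) and below it for 900 (8.65%). These differences are given for the deposited values only, and unequal scaling of the 2 lines would shift all of them alike. Of the 15 highest genes, 11 also rose in RasV12 cells, and of the 14 lowest that could be compared all 14 also fell there. The shares of all RasV12 genes that rose or fell were not worked out. These counts therefore do not show a likeness of the lines beyond that background. The difference itself was called for 7 of these 29 genes. Dusp1 was the one that went opposite ways: in RasV12 cells it fell, at 27.6 FPKM in CBD and 54.1 FPKM in DMSO. Hspa1a was at 2.66 FPKM in CBD and 2.90 FPKM in DMSO RasV12 cells (Benjamini-Hochberg adjusted p 0.83). Gadd45b, at 549 FPKM in CBD and 55.7 FPKM in DMSO RasV12 cells, rose in both lines, and its ratio differed between the lines by -0.40 (SE 0.89). Slc38a2, at 17.5 FPKM in CBD and 179 FPKM in DMSO RasV12 cells, fell in both, with a difference of -0.56 (SE 0.95). The p-values of the tables for the 2 lines differ in kind: in RasV12 cells 1705 genes, Gadd45b and Slc38a2 among them, share the lowest value listed, 5e-05. Standard errors at this value, like those at a p-value of 0 in ASZ cells, are upper bounds, so a difference that was not called does not show a like response.

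**Figure D5:**
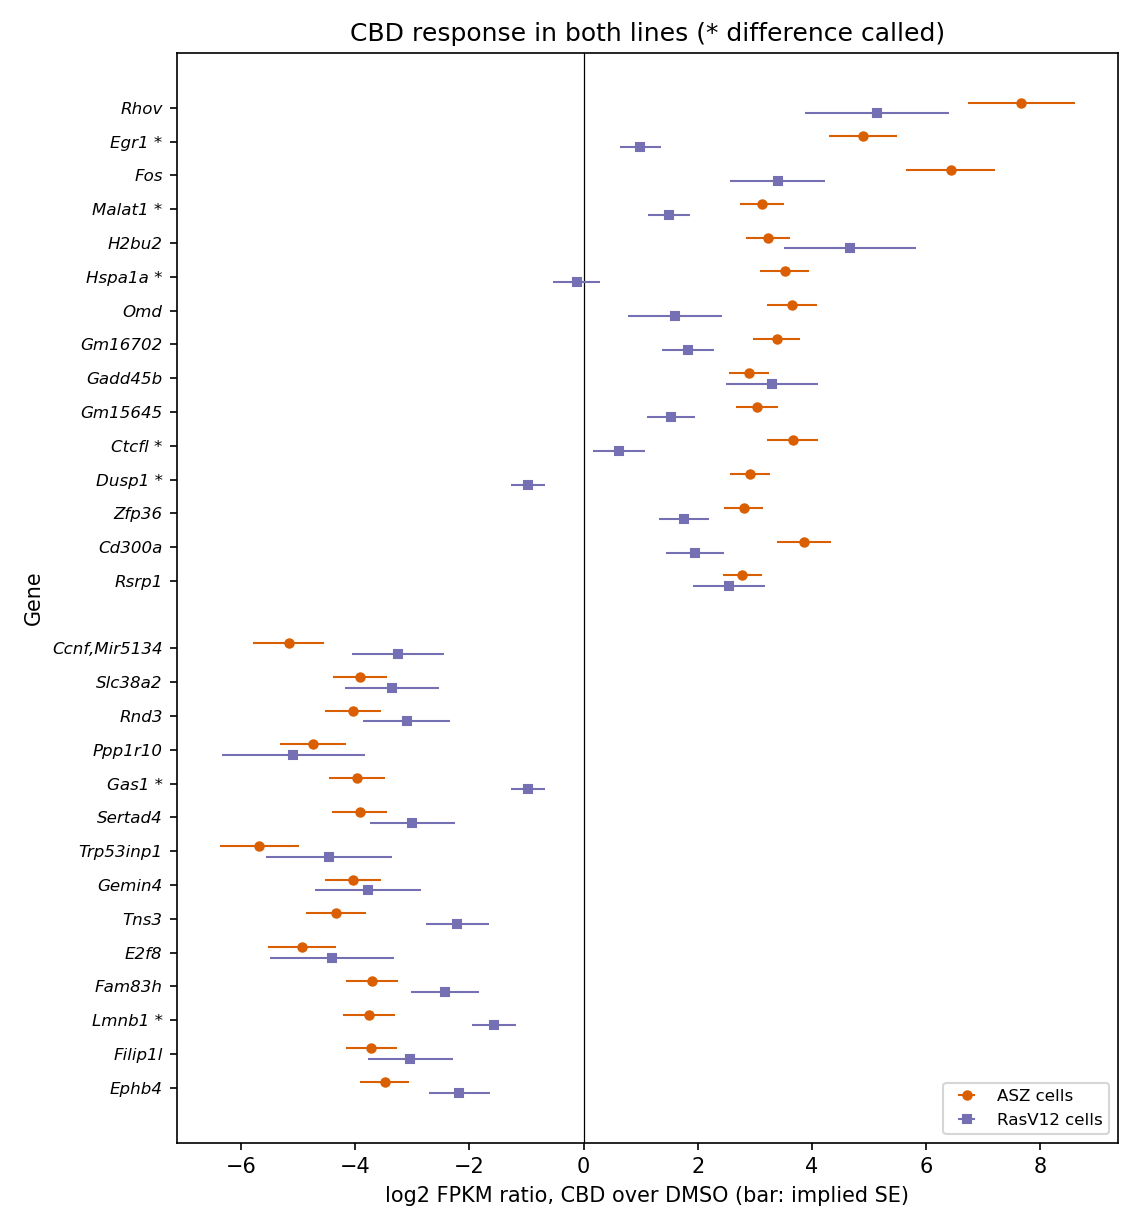
The log2 FPKM ratio of CBD over DMSO in ASZ cells (circles) and in RasV12 cells (squares), with bars for the implied standard error, for the 29 genes present in both tables; an asterisk marks the 7 whose difference between the lines was called. Dusp1 lies at 2.92 in ASZ cells and at -0.97 in RasV12 cells, and 14 of 14 lower genes lie below 0 in both lines.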

How the data were processed

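Per the labels' protocols, the Illumina TruSeq kit was used on total RNA; per the submitters' processing notes, reads were processed with TopHat and Cufflinks on mm9, in versions not given in the sources used here. The deposited FPKM values are 1 per group, over the 2 libraries that the file headers name, and the deposited p-value compares CBD with DMSO without adjustment. The variance model behind the authors' p-values is not stated in these sources. Rows without a name (199) or with a name turned into a date (26) were left out, 1660 older symbols were updated from RefSeq, and of 1211 rows with repeated symbols the highest was kept if the others were under 10% of it, which left out 53 rows at 1 FPKM or more. Benjamini-Hochberg adjustment was run over all tested genes (Python 3.11.15, pandas 2.3.3, scipy 1.17.1). A standard error was worked back from each p-value and log2 ratio through the normal distribution; 554 genes had a p-value of 0, set to 2.2e-16 here, so that their standard errors are upper bounds. The median errors were taken over genes with p above 0.01.

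For other scalings p was recomputed from these errors. Transcript properties came from GENCODE M21 (1 transcript per gene, 98.6% of genes matched) and promoters from RefSeq, both on GRCm38, a later build than mm9, so that no other coordinates are printed. Differences between the lines got a two-sided normal test that combined both errors. The members and the 62 gene lists were chosen with earlier results of these data known. Genes named are the 15 called with the highest and the 15 with the lowest change, up to 5 called members at each end of a list with its 2 most abundant members, preset genes of each list, the 10 most abundant genes and the 5 highest of those listed at 0 in the other group; some genes the rule names are not reported here. The calculation was checked on simulated data.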

Additional observations from a re-analysis of the deposited data

Results flagged for a closer look

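Of the 29 strongest genes that could be compared, the difference between wild-type and RasV12 cells was called for 7. The test compared the log2 ratios of the 2 lines, with Benjamini-Hochberg adjustment over 10399 genes. It used the deposited values only, and unequal scaling of the lines would shift every difference alike. Egr1 had a log2 ratio higher by 3.891 in ASZ cells, where it rose, than in RasV12 cells, where it also rose, at 7.79 FPKM in CBD and 3.90 FPKM in DMSO (adjusted p 5.6e-06). For Dusp1, which fell in RasV12 cells, the difference was 3.888 (adjusted p 4.0e-13). For Hspa1a it was 3.647 (adjusted p 4.2e-07). Ctcfl, the germ-line paralog of CTCF, differed by 3.04 (adjusted p 0.00019) and was at 1.95 FPKM in CBD and 1.26 FPKM in DMSO RasV12 cells, where it was not called. Malat1 differed by 1.625 (adjusted p 0.030) and rose in both lines, at 345 FPKM in CBD and 122 FPKM in DMSO RasV12 cells.

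Among the deepest falls, Gas1 differed by -2.993 (adjusted p 2.6e-05), with 11.95 FPKM in CBD and 23.5 FPKM in DMSO RasV12 cells. Lmnb1 differed by -2.2 (adjusted p 0.0067), with 11.1 FPKM in CBD and 32.9 FPKM in DMSO RasV12 cells. The genes were picked for their change in ASZ cells, which favours a larger ratio there, and what lies behind these differences was not tested.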

How the results depend on the processing

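The balance of directions depended on scaling. Against 1501 genes higher and 4532 lower as deposited, 440 were higher with equal FPKM sums and 2978 with equal medians, while the count lower stayed within 1.5 times. Relative to genes of like length, a fit that evens the directions by construction, 2441 were higher and 2676 lower. With Bonferroni adjustment, which is stricter by construction, 323 were higher and 2433 lower. Of changes of at least 2-fold, 456 higher and 2831 lower as deposited, 97 were higher with equal FPKM sums, 1400 were higher and 1896 lower with equal medians, and 1024 were higher and 1380 lower relative to genes of like length. A pseudocount of 5 left 308 higher and 1092 lower, since it shrinks the change of low genes. Equal fragment mass, no filter on low values, a minimum of 5 FPKM, a minimum of 1 FPKM in both groups, leaving out all repeated symbols and a pseudocount of 0.1 kept each count within 1.5 times.

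Of 61 gene lists, the majority direction turned for 14 with equal FPKM sums, 14 with equal medians and 3 with equal fragment mass. Of 245 genes named, 31 lost their call with equal FPKM sums, 12 with equal medians and 3 with equal fragment mass. Relative to genes of like length 33 lost it, and 65 did with Bonferroni adjustment. A call was gained by 6 with equal FPKM sums, 10 with equal medians and 5 relative to genes of like length. The 33 and 5 leave out 8 genes whose sign turned in that setting. Of them Dsg3, Egfr, Itga6, Npc1 and Rel lost their call there, Ccnd1 and Kif5b gained one as higher, and Polr2a passed as higher. With CBD values divided by the median ratio of genes of like length, the sign turned for Ccnd1 (0.6529), Dsg3 (0.0898), Egfr (0.5959), Itga6 (0.4092), Kif5b (1.0014), Npc1 (0.3785), Polr2a (0.7704) and Rel (0.1308). After subtraction of their median change instead, Dsg3 (-0.22) and Rel (-0.056) stayed below 0. No paired analysis was possible because the tables hold 1 value per group and none per library, and for the same reason no library could be left out. Beyond the construction of the settings named, the cause of these shifts was not tested.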
